A study of Danio rerio with 9 samples.

Results

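The genes described here belong to 5 immune gene families that are large or much expanded in bony fish: the fintrim genes (ftr), the other tripartite motif genes (trim), the NOD-like receptor genes (nlr), the immune-type receptor genes nitr, and the diverse immunoglobulin domain genes (dicp). They were chosen by name, without the muscle-specific genes trim63a, trim63b, trim55a and trim55b, and needed at least 10 counts in at least 3 libraries. Of 30628 genes in the table, 190 carried such a name and 129 passed the count rule. These were 59 of 79 fintrim names, 45 of 62 trim names, 12 of 13 nlr names, 6 of 26 nitr names and 7 of 10 dicp names. The GIMAP family of immune GTPases was also looked for, but 0 genes of the table carried a gimap name, so nothing is reported on it. The trim and nlr names also include genes that are conserved across vertebrates, such as trim24 and nlrx1.

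Fintrim and other TRIM proteins are built from a RING finger, B-boxes and a coiled coil, and many work as E3 ubiquitin ligases. Fintrim proteins mostly end in a B30.2 domain and were first described as genes induced by virus in trout leukocytes, and several mammalian TRIM proteins tune the response to viral RNA. NOD-like receptors are cytosolic sensors, some of which assemble inflammasomes, whereas NITR proteins are cell surface receptors of the immunoglobulin superfamily found on fish lymphocytes, including NK-like cells. DICP proteins also carry immunoglobulin domains. In the heart such transcripts can come from resident or circulating leukocytes as well as from heart muscle, vessels and connective tissue.

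Ventricles of zebrafish were compared in 3 genotypes, all given as 6 months old in the methods, with 3 libraries of 5 pooled ventricles for each genotype. Tg(cmlc2:tfeb) fish overexpress tfeb, a regulator of lysosome and autophagy genes, from the cmlc2 promoter of cardiomyocytes. Fish labelled mtorxu015/+ carry 1 mutant copy of mtor, the kinase that senses nutrients. WT siblings were the controls, but the labels do not give the line they came from, and the WT columns of the table carry a tag of 9 months. The age and the line of the WT fish therefore cannot be told apart from the genotype. Values are normalized counts: each estimated count was put on a common depth, the mean of the library sizes after TMM scaling. A gene was called when edgeR gave an adjusted p under 0.05, over 21216 genes tested, with a change of at least 1.5-fold. No exact permutation test over 3 against 3 libraries can go below p = 0.1.

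The estimated totals were 35440229 to 45273885 per library. The count of tfeb was 22100, 26430 and 8783 in Tg(cmlc2:tfeb) libraries, 1733, 2126 and 1586 in mtorxu015/+ libraries and 2169, 1654 and 1707 in WT libraries. All 3 transgenic libraries thus stood above the other 6, with replicate 3 the lowest of them. The count of mtor was 6165, 7294 and 5389 in mtorxu015/+ libraries and 6601, 3970 and 2522 in WT libraries. These groups overlap, so the mtor count does not check the heterozygous label. In Tg(cmlc2:tfeb) libraries the mtor count was 1900, 1904 and 1871, below the other 6. It was called lower in edgeR against WT (log2 fold change -1.21, SE 0.28, adjusted p 0.0153) and against mtorxu015/+ (log2 fold change -1.73, SE 0.29, adjusted p 0.00275). With a library left out, the adjusted p against WT stayed under 0.05 in 5 of 6 fits. The heart muscle markers stood far above those of macrophages. The summed normalized count over 14 cardiomyocyte genes was 2813000 to 3274000 in Tg(cmlc2:tfeb), 3518000 to 3783000 in mtorxu015/+ and 3585000 to 3713000 in WT. Over 16 macrophage genes it was 2282 to 4487 in all libraries. The cardiomyocyte sum was thus lower in every transgenic library than in the other 6. Red blood cell markers were much higher than those of macrophages. Over 13 erythroid genes the sum was 194800 to 252300 in Tg(cmlc2:tfeb), 93680 to 121400 in mtorxu015/+ and 150600 to 170200 in WT. In bulk ventricles, fewer cells of a type and less RNA per cell cannot be told apart.

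Most of these genes were weakly measured. The median over the 129 members was 63.2 normalized counts, against 214 over all genes tested, and 58 members had a mean under 50. The spread between replicates, given as the biological coefficient of variation of edgeR, had a median of 18.8% over the members and 15% over all genes tested. It was largest in NITR (26.2%) and DICP (24.3%) and smallest in TRIM (14.4%). Of the 129 members, 128 were tested, the exception being ftr85. The members nearest the count rule were ftr85 and trim54, with a third-highest count of 10 and 10.7, and just outside lay ftr58 and trim35-27 with 9.28 and 8.99. In all, 8 names are shared by 20 member genes, and 31 members overlap another gene of the table. How reads were split between such copies was not given in the sources used here, so their separate counts are uncertain.

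In Tg(cmlc2:tfeb) against WT, 20 of 128 members were called (15.6%), close to the 14.9% of all genes tested. The calls went in both directions. Higher in Tg(cmlc2:tfeb) were 11 members, where the share of all genes called higher was 7.41%, and lower were 9 members, where the share of all genes called lower was 7.49%. The median log2 fold change was 0.073 over the members and -6.3e-04 over all genes tested. By family, 6 fintrim genes rose and 6 fell among 58 tested, 2 TRIM genes rose and 2 fell among 45, 1 NITR gene rose and 1 fell among 6, and 2 DICP genes rose among 7. The NITR gene that rose, a nitr1b gene, met the count rule through the transgenic libraries alone, so that its call follows from how it was chosen. None of 12 NLR genes was called by edgeR, DESeq2 or limma-voom, and 2, 1 and 3 of them had an unadjusted p under 0.05 in these tools. In edgeR that share was 16.7%, against 35.7% of all genes tested. Of 7 tested NLR genes that carry only clone names in the table, added after the data were seen, 3 were called. The Tg(cmlc2:tfeb) and WT libraries did not overlap for 56 of 128 members (43.8%), against 42% of all genes tested.

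**Figure D1:**
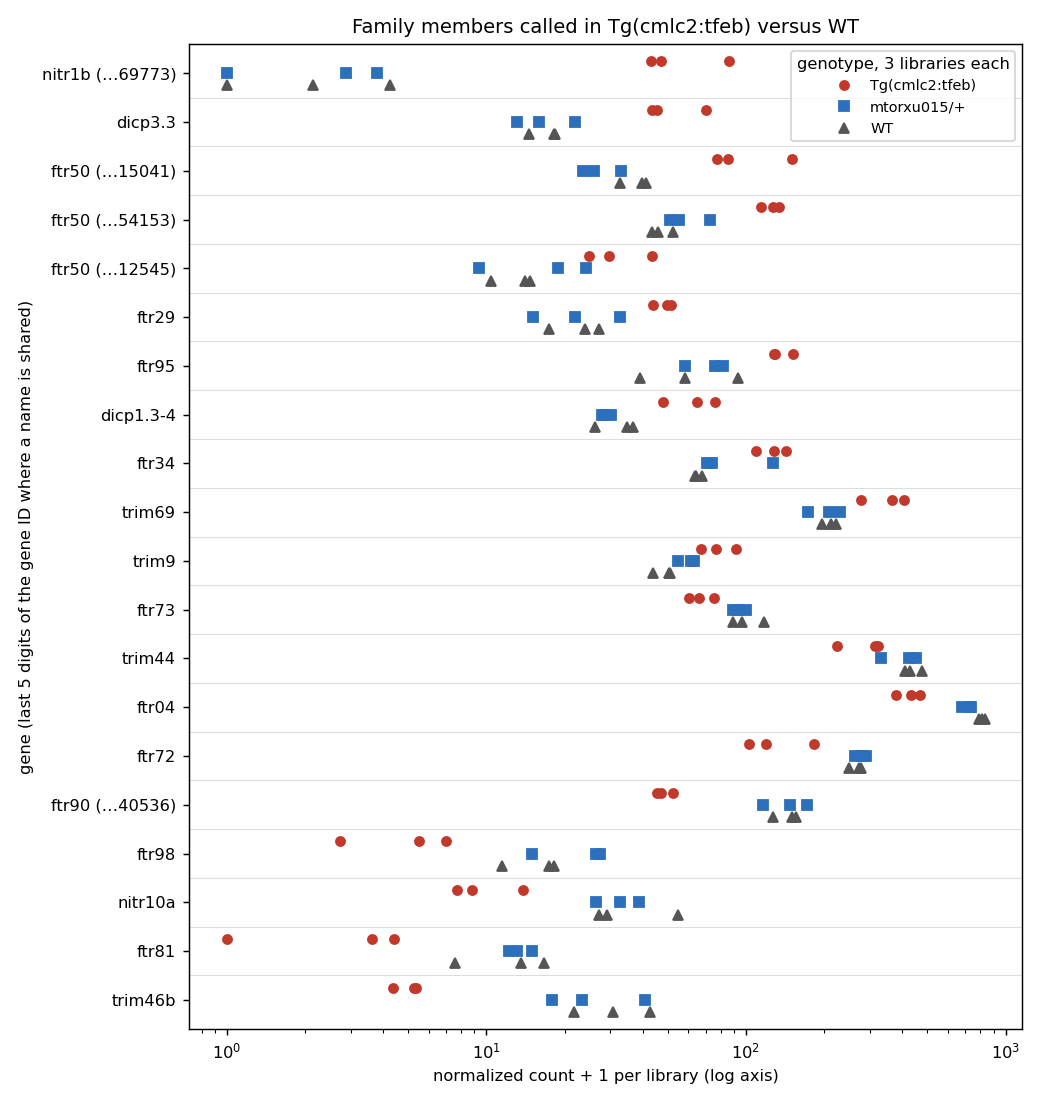
Normalized count plus 1 of each library on a log axis for the 20 members called in Tg(cmlc2:tfeb) versus WT, ordered from the highest to the lowest log2 fold change, with a point for each of 3 libraries per genotype. The circles of Tg(cmlc2:tfeb) lie apart from the triangles of WT in all 20 rows, and nitr1b at the top and trim46b at the bottom lie farthest apart.

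**Figure D2:**
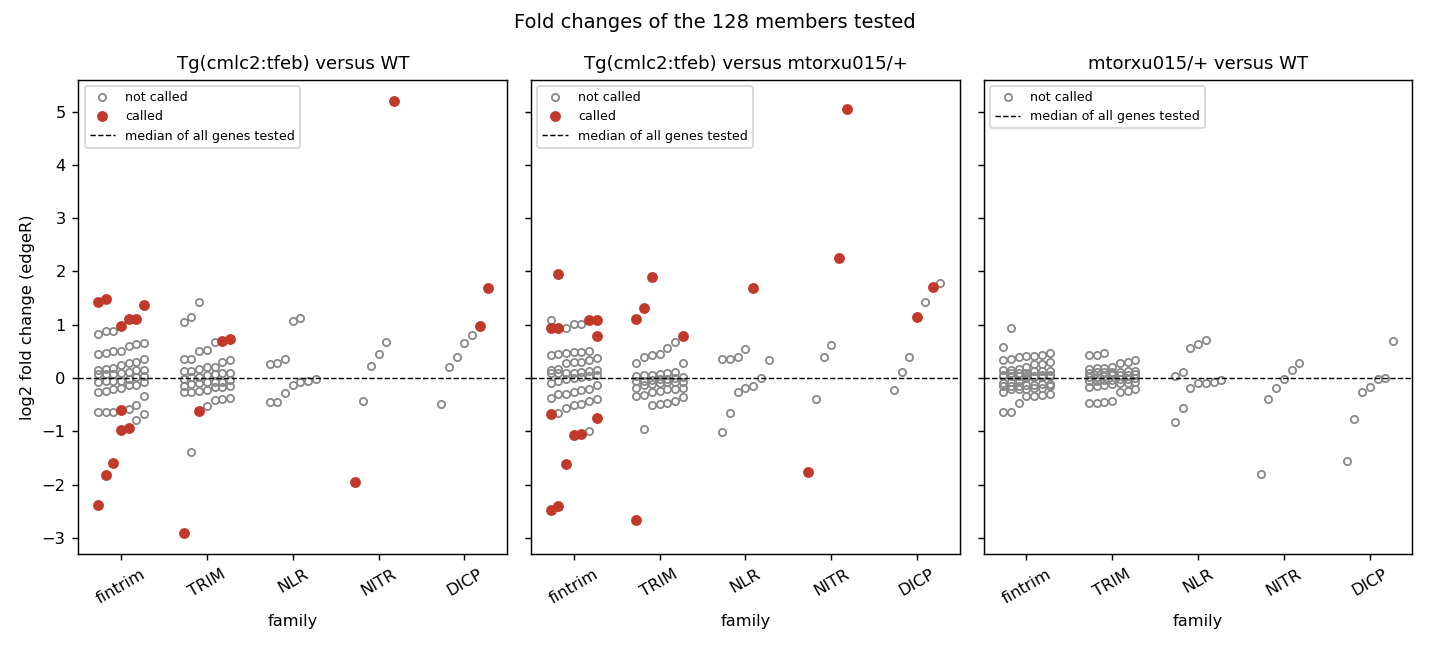
The log2 fold change of each of the 128 members tested, by family, in the 3 comparisons, with called genes filled and the median of all genes tested as a dashed line. Called genes lie on both sides of the line in the 2 comparisons with Tg(cmlc2:tfeb), and 0 genes are called in mtorxu015/+ versus WT.

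The fintrim genes that rose were 3 copies named ftr50, together with ftr95, ftr29 and ftr34. The normalized count of ftr50 ENSDARG00000054153 was 113, 133 and 127 in Tg(cmlc2:tfeb) libraries, 71.8, 50.2 and 54.5 in mtorxu015/+ libraries and 51.3, 42.5 and 44.7 in WT libraries (log2 fold change 1.42, SE 0.19, adjusted p 0.001). A neighbouring copy, ENSDARG00000115041, had 76.1, 84.5 and 149 in Tg(cmlc2:tfeb) libraries, 32.05, 25.1 and 22.5 in mtorxu015/+ libraries and 38.7, 40.2 and 31.6 in WT libraries (log2 fold change 1.48, SE 0.29, adjusted p 0.00692). In these copies every transgenic library was above all libraries of the other genotypes. The third called copy, ENSDARG00000112545, had 23.9, 28.7 and 42.6 in Tg(cmlc2:tfeb) libraries, 23.2, 8.36 and 17.8 in mtorxu015/+ libraries and 9.42, 13.8 and 13.1 in WT libraries (log2 fold change 1.38, SE 0.42, adjusted p 0.0439). Its transgenic libraries were above those of WT, but barely above the highest mtorxu015/+ library, and its call was lost without Tg(cmlc2:tfeb) replicate 1, 2 or 3 or WT replicate 1, 2 or 3 (adjusted p 0.0527 to 0.134, and 0.0303 to 0.134 over all alternatives). With all libraries kept, it was lost in limma-voom (adjusted p 0.0548) and with no filter on low counts (adjusted p 0.0527). The fourth copy, ENSDARG00000116623, had 62.4, 62.7 and 42.6 in Tg(cmlc2:tfeb) libraries and 41.9, 17.2 and 31.6 in WT libraries and was not called (log2 fold change 0.88, SE 0.33, adjusted p 0.0869).

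Another group of fintrim genes on chromosome 2 moved the same way. The count of ftr95 was 127, 129 and 150.2 in Tg(cmlc2:tfeb) libraries, 80.7, 75.2 and 57.3 in mtorxu015/+ libraries and 92.1, 57.4 and 38.2 in WT libraries (log2 fold change 1.11, SE 0.28, adjusted p 0.0226). For ftr29 the values were 42.8, 48.8 and 50.4 in Tg(cmlc2:tfeb) libraries, 21, 31.6 and 14.1 in mtorxu015/+ libraries and 26.2, 22.96 and 16.4 in WT libraries (log2 fold change 1.11, SE 0.33, adjusted p 0.0383). All transgenic libraries of both genes lay above the others. The values of ftr34 were 109, 142 and 128 in Tg(cmlc2:tfeb) libraries, 126, 69.7 and 73.2 in mtorxu015/+ libraries and 62.8, 63.1 and 66.5 in WT libraries (log2 fold change 0.97, SE 0.24, adjusted p 0.0181). Here mtorxu015/+ replicate 1 lay among the transgenic libraries, and only WT was set apart. These calls were not kept in every fit with a library left out: ftr95 lost its call without Tg(cmlc2:tfeb) replicate 2 or 3 or WT replicate 2 or 3 (adjusted p 0.0529 to 0.074, and 0.00429 to 0.074 over all alternatives), ftr29 without Tg(cmlc2:tfeb) replicate 1, 2 or 3 or WT replicate 1, 2 or 3 (adjusted p 0.062 to 0.121, and 0.0249 to 0.121 over all alternatives) and ftr34 without Tg(cmlc2:tfeb) replicate 2 or WT replicate 1 or 2 (adjusted p 0.0561 to 0.0648, and 0.00492 to 0.0648 over all alternatives).

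The fintrim genes that fell were ftr90 ENSDARG00000040536, ftr72 and ftr73 on chromosome 15, ftr04 on chromosome 2, ftr81 on chromosome 13 and ftr98 on chromosome 8. The count of this ftr90 gene was 44.5, 46.2 and 51.5 in Tg(cmlc2:tfeb) libraries, 115, 171 and 147 in mtorxu015/+ libraries and 155, 149 and 127 in WT libraries (log2 fold change -1.60, SE 0.18, adjusted p 4.8e-04). That of ftr72 was 102, 182 and 119 in Tg(cmlc2:tfeb) libraries, 262, 279.6 and 288 in mtorxu015/+ libraries and 249, 276 and 273 in WT libraries (log2 fold change -0.98, SE 0.19, adjusted p 0.00638). That of ftr04 was 431, 377 and 469 in Tg(cmlc2:tfeb) libraries, 679, 726 and 738 in mtorxu015/+ libraries and 790.3, 829 and 810.2 in WT libraries (log2 fold change -0.93, SE 0.091, adjusted p 2.5e-04). In all of these the transgenic libraries lay below the other 6, and the calls were kept with any library left out. The gene models of ftr90 ENSDARG00000040536 and ENSDARG00000097373 overlap by 2587 bp. The copy ENSDARG00000097373 fell less and stayed under 1.5-fold (log2 fold change -0.57, SE 0.14, adjusted p 0.0188). Another ftr90 gene of the set, ENSDARG00000097679, was not called against WT (log2 fold change 0.17, SE 0.22, adjusted p 0.623). Its count was 119, 121 and 113 in Tg(cmlc2:tfeb) libraries and 121, 74.6 and 118 in WT libraries, so these groups overlapped. The model of ftr04 overlaps ftr06, ftr07, ftr08, ftr09 and an ftr10 gene.

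Smaller counts or changes lay behind the other fintrim genes that fell. The count of ftr98 was 5.98, 1.74 and 4.48 in Tg(cmlc2:tfeb) libraries, 26.5, 13.9 and 25.4 in mtorxu015/+ libraries and 10.5, 17.2 and 16.4 in WT libraries (log2 fold change -1.82, SE 0.51, adjusted p 0.0306). For ftr81 it was 3.42, 2.61 and 0 in Tg(cmlc2:tfeb) libraries, 12.2, 13.9 and 11.3 in mtorxu015/+ libraries and 15.7, 12.6 and 6.54 in WT libraries (log2 fold change -2.38, SE 0.66, adjusted p 0.031). For ftr73 it was 64.97, 74.02 and 59.4 in Tg(cmlc2:tfeb) libraries, 92.8, 99.4 and 88.3 in mtorxu015/+ libraries and 87.9, 95.3 and 117 in WT libraries (log2 fold change -0.59, SE 0.17, adjusted p 0.0332). Their transgenic libraries were below every WT library, by few counts in ftr81, whose lowest WT library had 6.54. Calls were lost for ftr98 without Tg(cmlc2:tfeb) replicate 2 or 3 or WT replicate 2 or 3 (adjusted p 0.0645 to 0.0971, and 0.0305 to 0.0971 over all alternatives), for ftr81 without Tg(cmlc2:tfeb) replicate 2 or WT replicate 1 or 2 (adjusted p 0.0829 to 0.108, and 0.0231 to 0.108 over all alternatives) and for ftr73 without Tg(cmlc2:tfeb) replicate 1 or 3 or WT replicate 2 or 3 (adjusted p 0.0644 to 0.115, and 0.0333 to 0.115 over all alternatives). With all libraries kept, the call of ftr73 was lost in limma-voom (log2 fold change -0.58, adjusted p 0.0363), with upper-quartile normalization (log2 fold change -0.57, adjusted p 0.0408) and in a fit of only 2 genotypes (adjusted p 0.0588). From that last fit ftr98 and ftr81 were removed by the filter on low counts, so they had no call in it.

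Position was not used to choose the genes. Members closer than 500 kb to the next were joined into 20 runs that held 78 of the 129 members, with 51 alone. The run at chr3:4444233-4612324 (GRCz11, as the table gives it) held trim35-3, ftr43 and the 4 ftr50 genes. All 6 had a positive log2 fold change in Tg(cmlc2:tfeb) versus WT, with a median of 1.13, and 3 were called higher. Among 10 other genes tested nearby, 0 were called. The run at chr2:59135878-59390464 held 13 fintrim genes, of which ftr95, ftr29 and ftr34 were called higher, 10 had a positive log2 fold change, and the median was 0.46. Of 10 other genes tested near that run, 0 were called. Over all genes tested, 14.9% were called (7.41% higher and 7.49% lower), so 0 calls among 10 neighbours does not set either run apart.

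On chromosome 15 the direction was the opposite. The run at chr15:41312032-41762565 held nlrc8 (2 genes), nlrc9, ftr90 (3 genes), ftr76, ftr73, ftr72 and ftr91. In Tg(cmlc2:tfeb) versus WT, 3 of these 10 fell and 0 rose, with a median log2 fold change of -0.43, and of 19 other genes nearby 1 rose and 3 fell. Over all genes tested, 7.41% were called higher and 7.49% lower. A run of 7 fintrim genes at chr2:47869807-47951567, from ftr05 to ftr19, had 0 calls and a median of -0.18. Genes of a run share a stretch of chromosome and many share a name, so they are not separate measurements of the genotype. Whether the fish of the 3 genotypes carry the same copies of these genes was not tested.

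**Figure D3:**
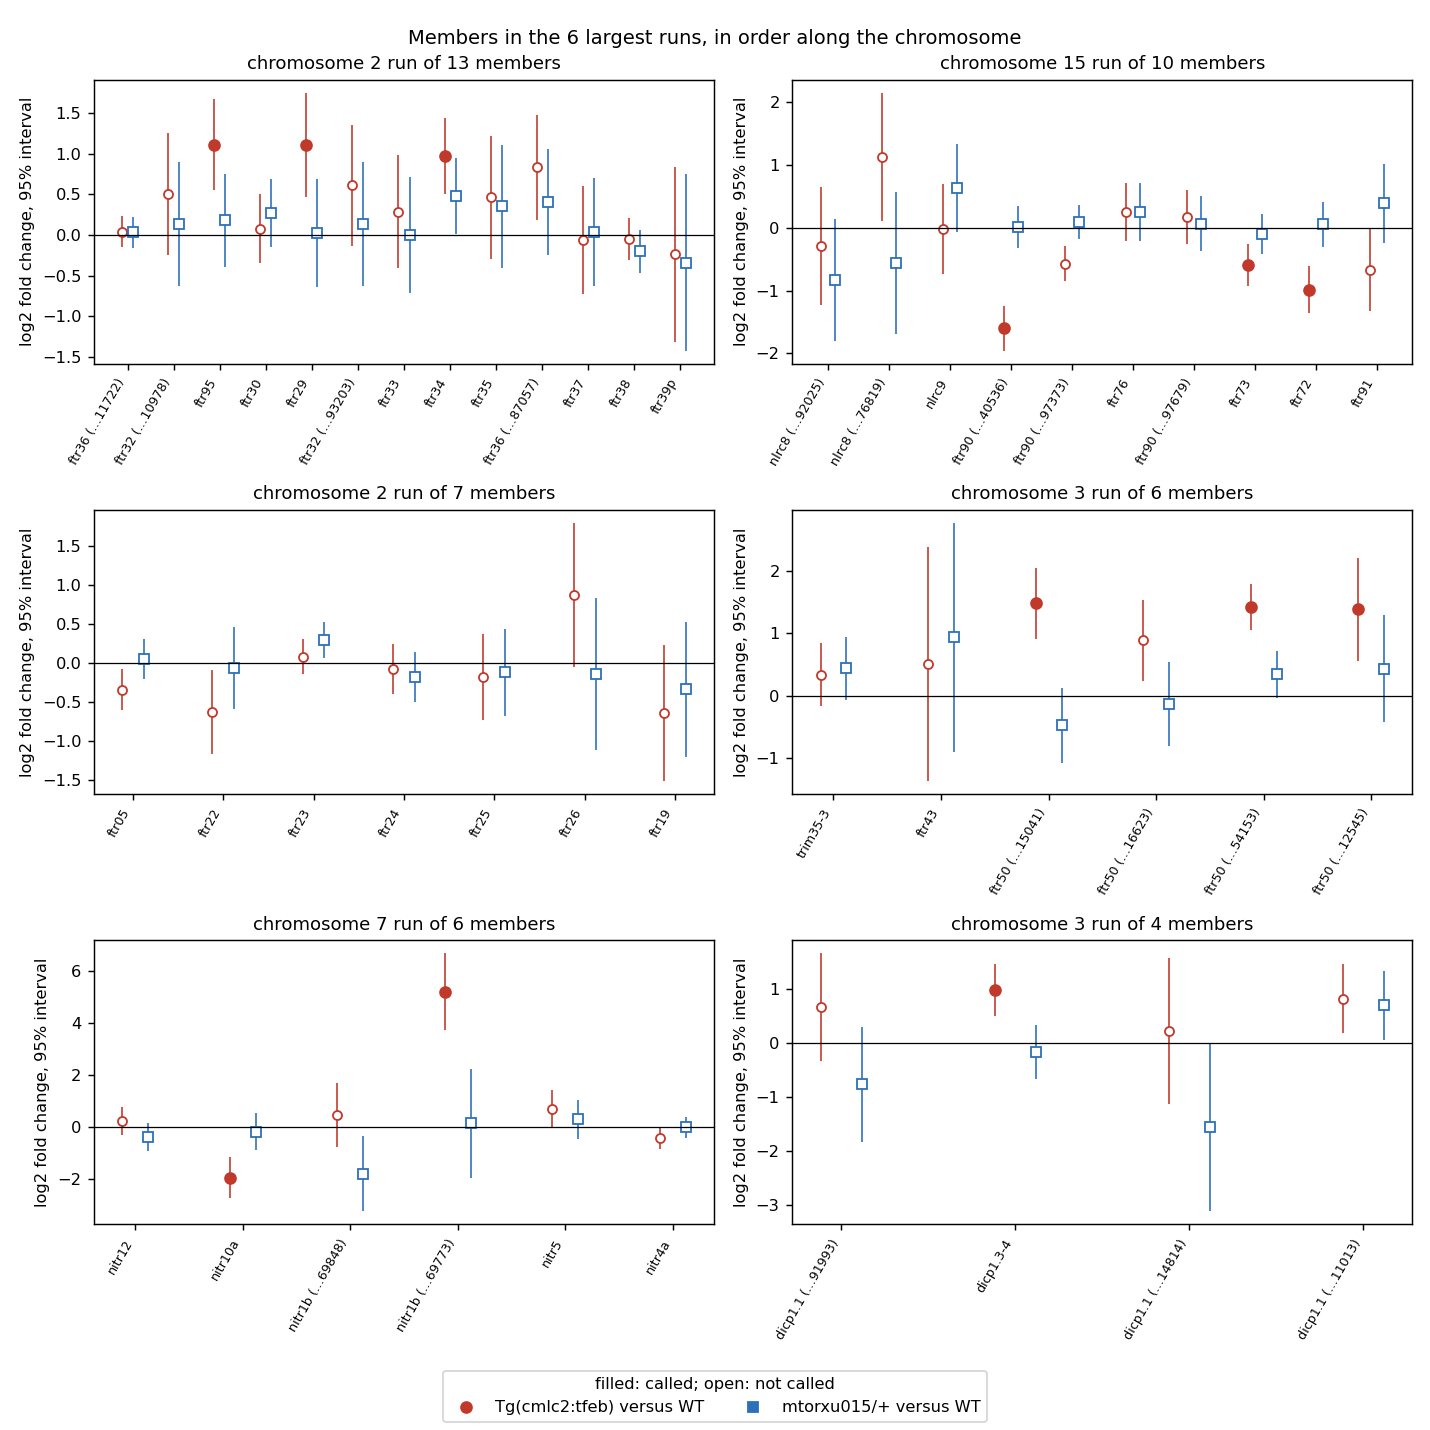
The log2 fold change with its 95% interval for members of the 6 largest runs, in order along each chromosome, as circles for Tg(cmlc2:tfeb) versus WT and squares for mtorxu015/+ versus WT, filled where called. The ftr50 genes sit above 0 and ftr90 ENSDARG00000040536, ftr73 and ftr72 below it in Tg(cmlc2:tfeb), and no square is filled.

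Among the TRIM genes outside the fintrim group, trim69 and trim9 rose and trim46b and trim44 fell in Tg(cmlc2:tfeb). Trim69 is a ubiquitin ligase tied to microtubules in mammals, and its count was 404, 364 and 277 in Tg(cmlc2:tfeb) libraries, 229.9, 208 and 172 in mtorxu015/+ libraries and 195, 222 and 212 in WT libraries (log2 fold change 0.74, SE 0.16, adjusted p 0.0103). The neuronal ligase gene trim9 had 65.8, 75.8 and 90.8 in Tg(cmlc2:tfeb) libraries, 61.9, 60.4 and 53.5 in mtorxu015/+ libraries and 42.9, 49.4 and 50.2 in WT libraries (log2 fold change 0.70, SE 0.19, adjusted p 0.0266). Both had all transgenic libraries above the other 6. The gene trim46b, whose mammalian counterpart bundles microtubules in the axon initial segment, had 4.28, 4.35 and 3.36 in Tg(cmlc2:tfeb) libraries, 39.8, 22.3 and 16.9 in mtorxu015/+ libraries and 41.9, 29.9 and 20.7 in WT libraries (log2 fold change -2.90, SE 0.47, adjusted p 0.00283). All transgenic libraries had under 5 normalized counts, and the lowest of the others had 16.9. Its gene model overlaps that of s100a10a by 21745 bp. The count of trim44, which encodes a TRIM protein without a RING finger in mammals, was 312, 322 and 223 in Tg(cmlc2:tfeb) libraries, 452, 426 and 329.6 in mtorxu015/+ libraries and 408, 475 and 429 in WT libraries (log2 fold change -0.61, SE 0.16, adjusted p 0.0255). Its transgenic libraries lay below the WT libraries. The call of trim9 was lost without Tg(cmlc2:tfeb) replicate 2 or 3 or WT replicate 1, 2 or 3 (adjusted p 0.0579 to 0.084, and 0.0238 to 0.084 over all alternatives) and that of trim44 without Tg(cmlc2:tfeb) replicate 3 or WT replicate 2 or 3 (adjusted p 0.0555 to 0.0822, and 0.00773 to 0.0822 over all alternatives). With all libraries kept, trim44 came under 1.5-fold with upper-quartile normalization (log2 fold change -0.58, adjusted p 0.0316).

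The other TRIM genes moved less. Of all 21216 genes tested, 1510 had an adjusted p under 0.05 in edgeR with a change under 1.5-fold, 675 higher and 835 lower in Tg(cmlc2:tfeb). Among the 45 TRIM genes tested, 6 more were of this kind, 2 of them higher and 4 lower. The higher genes were trim37, whose mammalian protein acts at centrosomes and peroxisomes (219.6 ± 16.4 in Tg(cmlc2:tfeb), 149 ± 8.88 in mtorxu015/+ and 154 ± 11.8 in WT, SD, n = 3 each, log2 fold change 0.51, SE 0.12, adjusted p 0.0126), and trim35-33 (log2 fold change 0.36, SE 0.11, adjusted p 0.038). Lower was trim25, which activates the RNA sensor RIG-I in mammals, at 1047, 1190 and 1261 in Tg(cmlc2:tfeb) libraries, 1564, 1370 and 1932 in mtorxu015/+ libraries and 1635, 1573 and 1473 in WT libraries (log2 fold change -0.42, SE 0.13, adjusted p 0.0419). Its transgenic libraries were below all others. Also lower were trim13, a ligase of the endoplasmic reticulum in mammals (log2 fold change -0.37, SE 0.12, adjusted p 0.0463), trim105 (log2 fold change -0.52, SE 0.13, adjusted p 0.0202) and trim8b (log2 fold change -0.26, SE 0.081, adjusted p 0.0497). With a library left out, trim37 passed in all 6 fits, trim105 in 2, trim13 and trim35-33 in 1 each and trim25 and trim8b in 0. Over all alternatives the adjusted p was 0.0176 to 0.124 for trim25, 0.0422 to 0.142 for trim8b, 0.0339 to 0.143 for trim13, 0.00573 to 0.0702 for trim105 and 0.0267 to 0.109 for trim35-33.

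Most conserved TRIM genes did not pass the test in Tg(cmlc2:tfeb) versus WT. The co-regulators of transcription trim24 and trim33 had 644 ± 25.04 in Tg(cmlc2:tfeb), 734 ± 15.5 in mtorxu015/+ and 676 ± 11.1 in WT, and 558 ± 124 in Tg(cmlc2:tfeb), 706 ± 137 in mtorxu015/+ and 623 ± 42.97 in WT (SD, n = 3 each). The interval of trim24 was narrow (log2 fold change -0.069, 95% interval -0.20 to 0.065, adjusted p 0.511), while that of trim33 was wider (log2 fold change -0.16, 95% interval -0.51 to 0.20, adjusted p 0.579). The gene trim3b, with the highest mean count of the trim names, had 1696 ± 103 in Tg(cmlc2:tfeb), 2172 ± 237 in mtorxu015/+ and 1993 ± 83.1 in WT (SD, n = 3 each) and did not pass (log2 fold change -0.23, 95% interval -0.41 to -0.052, adjusted p 0.103). For trim32, trim59, trim71, trim3a, trim8a, trim45 and trim2a the log2 fold change lay between -0.18 and 0.30, and none passed. The muscle gene trim54 was near the count rule, with 13.7, 8.71 and 16.8 in Tg(cmlc2:tfeb) libraries, 4.42, 9.29 and 10.3 in mtorxu015/+ libraries and 4.19, 4.59 and 8.72 in WT libraries, and its groups overlapped.

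The NLR genes, of which none was called in Tg(cmlc2:tfeb) versus WT, had log2 fold changes from -0.45 to 1.13. The mitochondrial family member nlrx1 had 879, 1103 and 1251 in Tg(cmlc2:tfeb) libraries, 1127, 1240 and 1324 in mtorxu015/+ libraries and 1237, 1030 and 1131 in WT libraries (log2 fold change -0.073, 95% interval -0.33 to 0.19, adjusted p 0.726). The gene nlrc5, which switches on MHC class I genes in mammals, had 575, 581 and 653 in Tg(cmlc2:tfeb) libraries, 598, 600.1 and 597 in mtorxu015/+ libraries and 611, 649 and 625 in WT libraries (log2 fold change -0.06, 95% interval -0.21 to 0.089, adjusted p 0.61). In both, Tg(cmlc2:tfeb) overlapped WT, while mtorxu015/+ lay just below WT in nlrc5, and both intervals lie within 1.5-fold of no change. The count of nlrc3l1 was 1181, 1172 and 1210 in Tg(cmlc2:tfeb) libraries, 1389, 1344 and 1241 in mtorxu015/+ libraries and 1285, 1357 and 1247 in WT libraries (log2 fold change -0.13, 95% interval -0.27 to 0.016, adjusted p 0.247) and that of nlrc6 was 630.1, 793 and 930.2 in Tg(cmlc2:tfeb) libraries, 621, 545 and 672 in mtorxu015/+ libraries and 709.7, 706 and 552 in WT libraries (log2 fold change 0.26, 95% interval -0.048 to 0.56, adjusted p 0.27). The gene nlrc7 was lower by less than 1.5-fold, with 112, 143 and 139 in Tg(cmlc2:tfeb) libraries, 172, 149.6 and 150.2 in mtorxu015/+ libraries and 182, 161 and 195 in WT libraries (log2 fold change -0.45, SE 0.14, adjusted p 0.0463). All its transgenic libraries were below WT, but it passed in 0 of 6 fits with a library left out (adjusted p 0.0444 to 0.139 over all alternatives). The rarer NLR genes, nlrc8 (2 genes), nlrc9, nlrb5, nlrp15 and nlrc3, had at most 45.1 normalized counts in any library. Of these, nlrb5 had 12.8, 15.7 and 15.7 in Tg(cmlc2:tfeb) libraries and 5.23, 8.04 and 7.63 in WT libraries (log2 fold change 1.07, 95% interval 0.38 to 1.75, adjusted p 0.0557), and nlrc8 ENSDARG00000076819 had 15.4, 22.6 and 20.2 in Tg(cmlc2:tfeb) libraries and 11.5, 12.6 and 2.18 in WT libraries (log2 fold change 1.13, 95% interval 0.11 to 2.15, adjusted p 0.151). In both every transgenic library was above WT, and neither passed the test. The nominal interval of nlrc8 ENSDARG00000076819 leaves out 0 although its unadjusted edgeR p was 0.056.

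**Figure D4:**
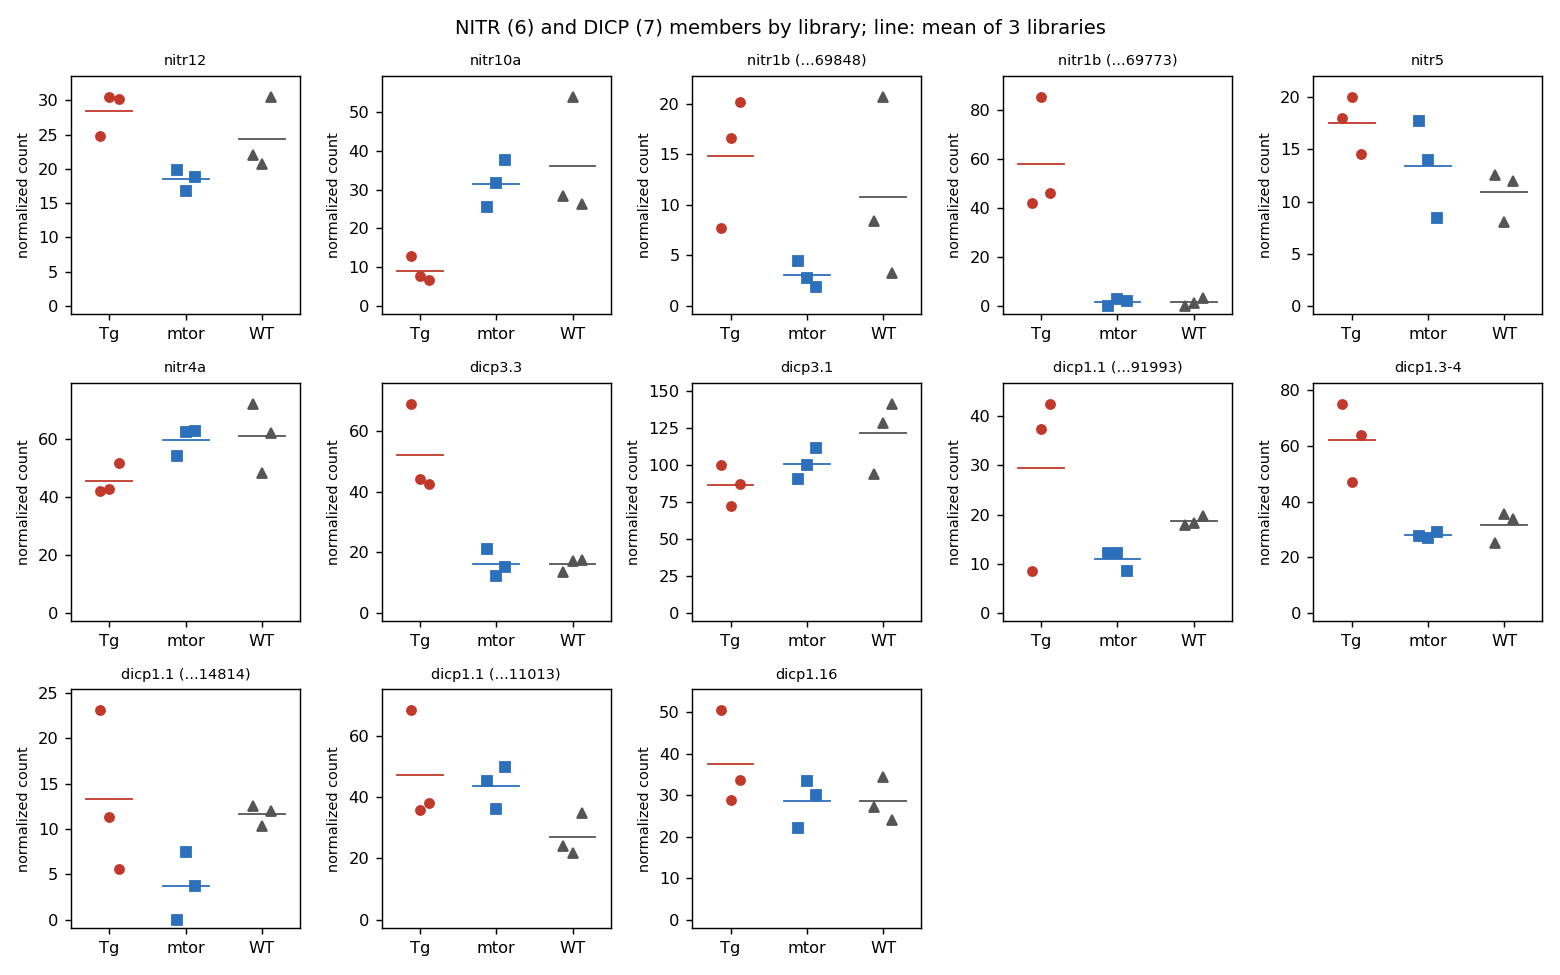
Normalized counts of the 6 NITR and 7 DICP members, with a point for each library of Tg(cmlc2:tfeb) (Tg), mtorxu015/+ (mtor) and WT and a line at the mean of 3 libraries. The nitr1b gene ENSDARG00000069773 stands at 41.9 to 85.3 in Tg(cmlc2:tfeb) and at most 3.27 elsewhere, and nitr10a stands lowest in Tg(cmlc2:tfeb).

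The largest fitted fold change of all members in Tg(cmlc2:tfeb) versus WT lay in an NITR gene. The gene nitr1b ENSDARG00000069773, at chr7:17559929-17600540, had 41.9, 85.3 and 45.95 in Tg(cmlc2:tfeb) libraries, 0, 2.79 and 1.88 in mtorxu015/+ libraries and 0, 1.15 and 3.27 in WT libraries. The transgenic libraries lay far above the other 6, which were all near 0. The gene met the count rule only because the 3 transgenic libraries did, so it had to differ, and its values are a description with no test. The fitted log2 fold change over WT was 5.19, a value that depends on the prior count. From the estimated counts, the rounded sum was 188 in Tg(cmlc2:tfeb) and 4 in WT, a depth-adjusted ratio of 40.2 with a 95% counting interval of 15.4 to 149, which covers counting error only. Against mtorxu015/+, where all libraries were at or under 3 counts (0, 2.56 and 1.84), the level was at least 19.4-fold higher, taking 3 counts per mtorxu015/+ library as the floor.

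This nitr1b gene was the only member at or under 3 estimated counts in all libraries of a genotype, which was mtorxu015/+. The background is 0.603% of all genes tested in Tg(cmlc2:tfeb), 0.368% in mtorxu015/+, 0.41% in WT and 1.19% in at least 1 genotype. Its model spans those of nitr4a and nitr5 and 2 genes named nitr6b. The count of nitr5 was 17.9, 20.03 and 14.6 in Tg(cmlc2:tfeb) libraries and 12.6, 8.04 and 11.99 in WT libraries, and that of nitr4a was 41.9, 42.7 and 51.5 in Tg(cmlc2:tfeb) libraries and 72.2, 48.2 and 62.2 in WT libraries, and neither was called. Thus the overlapped genes did not change to the same degree. Some marker genes of NK-like and cytotoxic cells were also higher in Tg(cmlc2:tfeb). The summed normalized count of 14 such genes was 637 to 735 in Tg(cmlc2:tfeb), 345.5 to 429 in mtorxu015/+ and 383 to 447 in WT. Of 8 tested, 2 were called higher and 0 lower against WT (25%, where 14.9% of all genes tested were called and 7.41% called higher). The gene nkl.1, of the NK-lysin family of cytotoxic granule proteins, had 139, 82.7 and 66.1 in Tg(cmlc2:tfeb) libraries, 17.7, 10.2 and 17.8 in mtorxu015/+ libraries and 31.4, 13.8 and 14.2 in WT libraries (log2 fold change 2.27, SE 0.41, adjusted p 0.0049). The related nkl.4 had 34.2, 41.8 and 49.3 in Tg(cmlc2:tfeb) libraries, 3.31, 7.43 and 7.51 in mtorxu015/+ libraries and 10.5, 5.74 and 11.99 in WT libraries (log2 fold change 2.13, SE 0.39, adjusted p 0.00488). Both were above the other 6 libraries in every transgenic library, 0 of the 14 genes were at 0 in all libraries, and il2rb carried most of the sum, with 384 ± 66.4 in Tg(cmlc2:tfeb), 253 ± 43.2 in mtorxu015/+ and 268 ± 27.6 in WT (SD, n = 3 each), but was not called against WT. The part of these cells in the nitr1b level was not tested.

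No other NITR member was called higher against WT. The count of nitr10a was 12.8, 7.84 and 6.72 in Tg(cmlc2:tfeb) libraries, 25.4, 31.6 and 37.6 in mtorxu015/+ libraries and 28.3, 53.96 and 26.2 in WT libraries (log2 fold change -1.95, SE 0.40, adjusted p 0.00848), so the transgenic libraries lay below all others. Its model lies on that of nitr9 and of a clone-named gene, over 1208 bp. A second nitr1b gene, ENSDARG00000069848, had 7.69, 16.6 and 20.2 in Tg(cmlc2:tfeb) libraries, 4.42, 2.79 and 1.88 in mtorxu015/+ libraries and 8.37, 20.7 and 3.27 in WT libraries, and nitr12 had 24.8, 30.5 and 30.3 in Tg(cmlc2:tfeb) libraries, 19.9, 16.7 and 18.8 in mtorxu015/+ libraries and 21.98, 20.7 and 30.5 in WT libraries. Both overlapped between Tg(cmlc2:tfeb) and WT, but every transgenic library of both lay above those of mtorxu015/+. Of the 6 NITR members, 3 had all transgenic libraries above mtorxu015/+ and 2 had all below (83.3%, against 41.8% of all genes tested). The 3 include nitr1b ENSDARG00000069773, which had to differ by the count rule. The T cell markers cd4-1 and cd8a had at most 10.2 and 3.72 normalized counts in any library. In Tg(cmlc2:tfeb) versus WT, 2 of 14 T cell markers tested fell while 0 rose (14.3%, where 14.9% of all genes tested were called and 7.49% called lower).

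Of 61 names under the count rule, 26 were at or under 3 estimated counts in all libraries of 1 or 2 genotypes but not of all 3, and 10 of these 26 were NITR names. Only 6 of 26 NITR names met the count rule at all, so this family is common among the names under it. The 26 stood at this level in 5 cases in Tg(cmlc2:tfeb), in 16 in mtorxu015/+ and in 14 in WT. These estimated counts were not put on a common depth. The share over other genes under the count rule was not computed, so the 3 numbers are a description only. The clearest was ftr11, with 9.09, 8.03 and 6.86 estimated counts in Tg(cmlc2:tfeb), 0 in all mtorxu015/+ libraries and 0, 2.32 and 0 in WT. Among the NITR names, nitr2b, nitr3a and another nitr1b gene, ENSDARG00000115144, had every transgenic library above the other 6. The estimated count of nitr3a was 10.4, 3.75 and 8.79 in Tg(cmlc2:tfeb), 1.36, 3.12 and 2.41 in mtorxu015/+ and 0 in all WT libraries. The reverse held for trim35-23, with 0, 0 and 0.0053 in Tg(cmlc2:tfeb), 5.46, 4.05 and 5.29 in mtorxu015/+ and 3.13, 0 and 0 in WT. These counts are too low for a test.

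Of the 7 DICP genes, 2 rose and 0 fell in Tg(cmlc2:tfeb) against WT (28.6%, where 14.9% of all genes tested were called and 7.41% called higher). Against WT, 6 of 7 had a positive log2 fold change, as had 10597 of the 21216 genes tested. The median was 0.65 over the family and -6.3e-04 over all genes tested. The dicp1.1 and dicp1.3-4 genes, 4 of the 7, lie together on chromosome 3 with overlapping models, so they are not separate measurements. The count of dicp3.3 was 69.2, 44.4 and 42.6 in Tg(cmlc2:tfeb) libraries, 21, 12.1 and 15.02 in mtorxu015/+ libraries and 13.6, 17.2 and 17.4 in WT libraries (log2 fold change 1.69, SE 0.32, adjusted p 0.00572). For dicp1.3-4 it was 75.2, 47.03 and 63.9 in Tg(cmlc2:tfeb) libraries, 27.6, 26.9 and 29.1 in mtorxu015/+ libraries and 25.1, 35.6 and 33.8 in WT libraries (log2 fold change 0.98, SE 0.25, adjusted p 0.0216). Both had all transgenic libraries above the other 6. The call of dicp1.3-4 was lost without Tg(cmlc2:tfeb) replicate 1 or 3 or WT replicate 1 or 3 (adjusted p 0.0513 to 0.0755, and 0.0197 to 0.0755 over all alternatives), and its model overlaps all 3 dicp1.1 genes of the set. The gene dicp3.1, next to dicp3.3 on chromosome 16, went the other way without passing the test, with 100, 72.3 and 87.4 in Tg(cmlc2:tfeb) libraries, 90.6, 100.3 and 112 in mtorxu015/+ libraries and 94.2, 129 and 142 in WT libraries (log2 fold change -0.49, SE 0.20, adjusted p 0.107). Among the dicp1.1 genes, ENSDARG00000091993 spread widely within the transgenic group, with 8.55, 37.5 and 42.6 in Tg(cmlc2:tfeb) libraries, 12.2, 12.1 and 8.45 in mtorxu015/+ libraries and 17.8, 18.4 and 19.6 in WT libraries.

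In mtorxu015/+ against WT, 0 of 128 members were called by edgeR, DESeq2 or limma-voom, where 0.0236% of all genes tested were called by edgeR (0.00943% higher and 0.0141% lower). At an unadjusted p under 0.05 there were 3 members in each of these tools (2.34% in edgeR, against 7.86% of all genes tested). In edgeR these were trim105, ftr23 and nitr1b ENSDARG00000069848, named here after their values were seen. The count of trim105 was 427, 380 and 380.3 in mtorxu015/+ libraries and 617, 449 and 579 in WT libraries (log2 fold change -0.47, SE 0.13, adjusted p 0.487). That of ftr23 was 333 ± 39.1 in mtorxu015/+ and 271 ± 27.9 in WT (SD, n = 3 each, log2 fold change 0.30, SE 0.12, adjusted p 0.584). The nitr1b gene had 4.42, 2.79 and 1.88 in mtorxu015/+ libraries and 8.37, 20.7 and 3.27 in WT libraries (log2 fold change -1.80, SE 0.74, adjusted p 0.605), and its groups overlap. The mtorxu015/+ and WT libraries did not overlap for 17 of 128 members (13.3%), against 13.2% of all genes tested. In trim105, Tg(cmlc2:tfeb) and mtorxu015/+ were both below WT, a pattern that rests on the same 3 WT libraries.

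The direct comparison of Tg(cmlc2:tfeb) with mtorxu015/+ called 24 of 128 members (18.8%), against 16% of all genes tested. Of these, 15 were higher in Tg(cmlc2:tfeb), where 8.09% of all genes were, and 9 were lower, where 7.95% of all genes were. They were 6 higher and 7 lower fintrim genes, 4 higher and 1 lower TRIM genes, 1 higher NLR gene, 2 higher and 1 lower NITR genes and 2 higher DICP genes. Of the 2 higher NITR genes, nitr1b ENSDARG00000069773 met the count rule through the transgenic libraries alone. Its call here follows from how it was chosen. This comparison shares its transgenic libraries with that against WT. In it, ftr50 ENSDARG00000115041 had a log2 fold change 1.95, SE 0.30, adjusted p 0.00185, ftr90 ENSDARG00000040536 a log2 fold change -1.61, SE 0.18, adjusted p 4.0e-04 and trim46b a log2 fold change -2.66, SE 0.47, adjusted p 0.00369. Of the genes called against WT, ftr34, ftr73, trim9, trim44 and ftr50 ENSDARG00000112545 were not called against mtorxu015/+.

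Among the genes called against mtorxu015/+ alone were 4 fintrim genes. The count of ftr56 was 65.8, 87.1 and 91.9 in Tg(cmlc2:tfeb) libraries, against 45.3, 33.4 and 48.8 in mtorxu015/+ libraries (log2 fold change 0.94, SE 0.22, adjusted p 0.0145), and that of ftr52p was 51.3, 49.6 and 56.04 in Tg(cmlc2:tfeb) libraries, against 35.4, 26.9 and 28.2 in mtorxu015/+ libraries (log2 fold change 0.79, SE 0.22, adjusted p 0.0271). Both were higher in every transgenic library. The count of ftr91 was 12.8, 21.8 and 30.3 in Tg(cmlc2:tfeb) libraries, against 40.9, 37.2 and 56.3 in mtorxu015/+ libraries (log2 fold change -1.06, SE 0.33, adjusted p 0.0433), and that of ftr90 ENSDARG00000097373 was 177, 238 and 214 in Tg(cmlc2:tfeb) libraries, against 305, 322 and 373 in mtorxu015/+ libraries (log2 fold change -0.67, SE 0.14, adjusted p 0.00832). Both lie in the chromosome 15 run and were lower in every transgenic library. Calls were lost for ftr56 without Tg(cmlc2:tfeb) replicate 2 (adjusted p 0.0502, and 0.00727 to 0.0502 over all alternatives), for ftr52p without Tg(cmlc2:tfeb) replicate 1, 2 or 3 or mtorxu015/+ replicate 2 or 3 (adjusted p 0.0589 to 0.0777, and 0.0186 to 0.0777 over all alternatives), for ftr91 without Tg(cmlc2:tfeb) replicate 1 or 2 or mtorxu015/+ replicate 1, 2 or 3 (adjusted p 0.0559 to 0.14, and 0.0257 to 0.14 over all alternatives) and for ftr90 without Tg(cmlc2:tfeb) replicate 1 or mtorxu015/+ replicate 3 (adjusted p 0.0271 to 0.0321, and 7.9e-04 to 0.0321 over all alternatives), where the change came under 1.5-fold. With all libraries kept, the call of ftr91 was lost with no filter on low counts (adjusted p 0.053) and in a fit of only 2 genotypes (adjusted p 0.0782).

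The rest of this group were low-count genes. The count of trim109 was 30.8, 47.03 and 34.7 in Tg(cmlc2:tfeb) libraries, against 13.3, 2.79 and 14.1 in mtorxu015/+ libraries (log2 fold change 1.9, SE 0.49, adjusted p 0.0205). That of trim35-29 was 17.9, 19.2 and 24.7 in Tg(cmlc2:tfeb) libraries, against 7.74, 6.5 and 10.3 in mtorxu015/+ libraries (log2 fold change 1.31, SE 0.36, adjusted p 0.0272), and that of trim66, a nuclear co-repressor gene in mammals, was 43.6, 27.9 and 31.4 in Tg(cmlc2:tfeb) libraries, against 16.6, 16.7 and 14.1 in mtorxu015/+ libraries (log2 fold change 1.11, SE 0.34, adjusted p 0.0392). In each the transgenic libraries were all above those of mtorxu015/+. The values of nlrc8 ENSDARG00000076819 were 15.4, 22.6 and 20.2 in Tg(cmlc2:tfeb) libraries, against 5.53, 7.43 and 4.7 in mtorxu015/+ libraries (log2 fold change 1.70, SE 0.54, adjusted p 0.0467), and those of nitr1b ENSDARG00000069848 were given above (log2 fold change 2.25, SE 0.72, adjusted p 0.0472). Their transgenic libraries were also all above. Calls were lost for trim109 without Tg(cmlc2:tfeb) replicate 2 (adjusted p 0.0722, and 0.00526 to 0.0722 over all alternatives), for trim35-29 without Tg(cmlc2:tfeb) replicate 2 or 3 or mtorxu015/+ replicate 1 or 2 (adjusted p 0.065 to 0.0878, and 0.0242 to 0.0878 over all alternatives), for trim66 without Tg(cmlc2:tfeb) replicate 1, 2 or 3 or mtorxu015/+ replicate 1, 2 or 3 (adjusted p 0.0569 to 0.128, and 0.0352 to 0.128 over all alternatives), for nlrc8 without Tg(cmlc2:tfeb) replicate 1, 2 or 3 or mtorxu015/+ replicate 1, 2 or 3 (adjusted p 0.0681 to 0.137, and 0.0179 to 0.137 over all alternatives) and for nitr1b without Tg(cmlc2:tfeb) replicate 2 or 3 or mtorxu015/+ replicate 1, 2 or 3 (adjusted p 0.0784 to 0.142, and 0.0424 to 0.142 over all alternatives). With all libraries kept, calls were lost for trim35-29 in DESeq2 (adjusted p 0.06), for nlrc8 in DESeq2 (adjusted p 0.0529), in limma-voom (adjusted p 0.0525) and with no filter on low counts (adjusted p 0.0647) and for nitr1b in limma-voom (adjusted p 0.0748) and with no filter on low counts (adjusted p 0.0577). This nitr1b gene had no mtorxu015/+ library that reached 10 counts, and it was filtered out in a fit of only 2 genotypes.

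Summed over a family, the levels of the larger families differed little between genotypes. The 59 fintrim genes summed to 7110, 7748 and 7945 normalized counts in Tg(cmlc2:tfeb) libraries, 8180, 7699 and 8117 in mtorxu015/+ libraries and 7902, 8043 and 7653 in WT libraries. The 45 TRIM genes summed to 12160, 12210 and 12140 in Tg(cmlc2:tfeb), 13310, 12960 and 14100 in mtorxu015/+ and 13130, 13390 and 13020 in WT. The fintrim sums overlap, while the TRIM sums of the transgenic libraries lay below all others. The NLR sums were 4312 ± 434 in Tg(cmlc2:tfeb), 4362 ± 65.4 in mtorxu015/+ and 4334 ± 117 in WT (SD, n = 3 each). The NITR sums were 173 ± 28.1, 128 ± 5.36 and 144.5 ± 7.71 and the DICP sums 329 ± 60.4, 232 ± 14.8 and 255 ± 35.9 in the same order. The NITR sum holds nitr1b ENSDARG00000069773, with means of 57.7, 1.56 and 1.47 in that order. That gene met the count rule through the transgenic libraries alone, so the higher NITR sum in Tg(cmlc2:tfeb) is no result about the family. A few genes carry these sums, with 22.7% of the fintrim sum from ftr82 and 29.3% of the NLR sum from nlrc3l1. The choice of sum or median matters for the sign. The median log2 level over the members of a library was higher in Tg(cmlc2:tfeb) than in WT by 0.27 for fintrim and 0.059 for TRIM. That median follows the gene of middle rank in each library, not the change of a typical member. The median of the members' own log2 fold changes was 0.075 for fintrim and 0.012 for TRIM.

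Genes that act with these families were read from lists of their pathways. Of 43 genes of NLR and inflammasome signalling tested, 2 rose and 0 fell in Tg(cmlc2:tfeb) versus WT (4.65%, where 14.9% of all genes were called and 7.41% called higher). These were casp3b, an executioner caspase gene, at 414, 637 and 349 in Tg(cmlc2:tfeb) libraries, 197, 256 and 201 in mtorxu015/+ libraries and 198, 188 and 203 in WT libraries (log2 fold change 1.25, SE 0.21, adjusted p 0.00344), and p2rx7, an ATP-gated channel gene, at 247, 241 and 189 in Tg(cmlc2:tfeb) libraries, 141, 116 and 159 in mtorxu015/+ libraries and 107, 125 and 139.6 in WT libraries (log2 fold change 0.87, SE 0.17, adjusted p 0.0064). Every transgenic library was above the rest in both. Of 36 genes of interferon and RNA sensing tested, 2 rose and 3 fell (13.9%). The signal transducer gene stat2 had 1847, 2797 and 2369 in Tg(cmlc2:tfeb) libraries, 7305, 8108 and 5638 in mtorxu015/+ libraries and 5680, 5993 and 6988 in WT libraries (log2 fold change -1.41, SE 0.18, adjusted p 7.4e-04). The immunoproteasome gene psmb8a had 20.5, 11.3 and 15.7 in Tg(cmlc2:tfeb) libraries, 404, 159.8 and 284 in mtorxu015/+ libraries and 225, 176 and 116 in WT libraries (log2 fold change -3.43, SE 0.42, adjusted p 7.3e-04). In both the transgenic libraries lay far below the rest. The transcription factor gene irf3 was also lower (log2 fold change -0.78, SE 0.14, adjusted p 0.00425), while irf1b (log2 fold change 1.38, SE 0.29, adjusted p 0.00931) and ifit9 (log2 fold change 1.68, SE 0.47, adjusted p 0.0326) were higher. The call of ifit9 was lost without Tg(cmlc2:tfeb) replicate 2 or 3 or WT replicate 1 or 2 (adjusted p up to 0.11, and 0.0311 to 0.11 over all alternatives), and with all libraries kept in DESeq2 (0.059), with no filter on low counts (0.0509) and in a fit of only 2 genotypes (0.0521).

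The bloodthirsty-related TRIM genes (btr) are a further fish expansion of the TRIM family that the names above do not take in. Against mtorxu015/+, 1 of 16 tested was higher in Tg(cmlc2:tfeb) and 3 were lower (25%, against 16% of all genes tested). Against WT, 2 of 16 were lower and 0 higher (12.5%, where 14.9% of all genes tested were called and 7.49% called lower). Their median log2 fold change against WT was -0.63. In edgeR, 9 of the 16 had an unadjusted p under 0.05 against WT, where 35.7% of all genes tested had. In DESeq2, 4 of 25 were called against WT. The count of btr07 was 7.69, 3.48 and 10.1 in Tg(cmlc2:tfeb) libraries, 65.2, 195 and 61.03 in mtorxu015/+ libraries and 56.5, 139 and 129 in WT libraries (log2 fold change -3.94, SE 0.64, adjusted p 0.00289) and that of btr18 was 0, 8.71 and 0 in Tg(cmlc2:tfeb) libraries, 34.3, 13.01 and 26.3 in mtorxu015/+ libraries and 40.8, 32.1 and 29.4 in WT libraries (log2 fold change -3.43, SE 0.89, adjusted p 0.0238). All transgenic libraries of both were below the others. The call of btr18 was kept only without Tg(cmlc2:tfeb) replicate 2 (log2 fold change -8.07), and was lost with any other library left out (adjusted p up to 0.0662, and 0.0012 to 0.0662 over all alternatives). Of 14 interferon-inducible and very large GTPase genes tested, 2 rose and 0 fell against WT (14.3%, where 14.9% of all genes tested were called and 7.41% called higher). These were gbp2 (log2 fold change 1.29, SE 0.21, adjusted p 0.00305) and irgf4 (log2 fold change 0.62, SE 0.19, adjusted p 0.0458). The call of irgf4 was lost whichever of the 6 libraries was left out (adjusted p 0.059 to 0.139, and 0.0395 to 0.139 over all alternatives), and with all kept in DESeq2 (0.0722), with no filter on low counts (0.0633) and in a fit of only 2 genotypes (0.0615). In mtorxu015/+ versus WT, 0 genes of these 4 lists were called by edgeR, DESeq2 or limma-voom. An unadjusted p under 0.05 was reached in edgeR by 4 genes of NLR signalling, 4 of interferon and RNA sensing, 1 btr gene and 0 GTPase genes, and by 3, 3, 1 and 0 in DESeq2 and in limma-voom. Over all genes tested, 7.86% reached it in edgeR in mtorxu015/+ versus WT.

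Markers of the cells that could carry these transcripts did not all move together. In Tg(cmlc2:tfeb) versus WT, 2 of 15 macrophage markers tested fell (13.3%) and 0 rose, and 1 neutrophil marker rose and 1 fell among 12 (16.7%). Of all genes tested, 14.9% were called against WT, 7.41% higher and 7.49% lower. The macrophage markers had a median log2 fold change of -0.37. In edgeR, 7 of these 15 had an unadjusted p under 0.05, where 35.7% of all genes tested had. Of 10 B cell markers tested, 0 were called by edgeR, DESeq2 or limma-voom, and 0 had an unadjusted p under 0.05. Of 14 cardiomyocyte markers, 2 fell and 0 rose (14.3%). Against mtorxu015/+, 1 macrophage marker rose and 4 fell among 15 (33.3%), and 1 neutrophil marker rose and 2 fell among 12 (25%). Of all genes tested, 16% were called in that comparison. Of 13 fibroblast, epicardial and mural markers, 2 rose and 1 fell against WT (23.1%), and 5 rose and 1 fell against mtorxu015/+ (46.2%, where 16% of all genes tested were called). Erythroid markers were called higher in 3 of 13 against WT (23.1%) and in 9 of 13 against mtorxu015/+ (69.2%). Their summed counts were 194800 to 252300 in Tg(cmlc2:tfeb), 93680 to 121400 in mtorxu015/+ and 150600 to 170200 in WT, so these sums did not overlap between genotypes. Of 14 endothelial markers tested, 1 rose and 1 fell against WT (14.3%). Their summed counts were 56190 to 59570 in Tg(cmlc2:tfeb), 49340 to 55740 in mtorxu015/+ and 46660 to 50530 in WT, so every transgenic library was above the other 6. Of 7 thrombocyte markers tested, 0 were called against WT by edgeR, DESeq2 or limma-voom, and 2 had an unadjusted p under 0.05 in edgeR. The part of any of these cells in the levels of the family genes was not tested.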

How the data were processed

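RNA from ventricles of Tg(cmlc2:tfeb), mtorxu015/+ and WT zebrafish was measured in 9 libraries. The authors deposited an expected count (estimated count) for each gene and library. The submitters' processing notes list STAR (version 2.5.2b) and the GRCz11 build, whereas alignment in the methods was by TopHat (version 2.1.1), followed by Cufflinks (version 2.2.1). A scaledTPM tag in the column names leaves it possible that abundances were rescaled to counts, and among values of 0.5 to 5.5 a share of 58.5% was whole to within 0.1. The tool that made the table was not given in the sources used here. Strand and the sharing of reads between gene copies were not given either.

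Rounding to whole numbers, filterByExpr and TMM came before edgeR's quasi-likelihood test (edgeR version 4.0.16, R 4.3.3), which was fitted over all 9 libraries with genotype as the only term. The Benjamini-Hochberg adjustment of the two-sided p-values covered 21216 genes. Cuffdiff, which the study used, works on alignments and was not run. Totals were 35440229 to 45273885 per library, but the members had a median of 63.2 normalized counts and 58 of them a mean under 50. Counting error is therefore not small for many of these genes. Separate pools are described as biological replicates.

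The members and lists were chosen with earlier results of these data known. Genes were named by a rule: the manipulated genes, up to 6 called members per direction, family and comparison, members silent in a genotype, the 3 highest members of each family, conserved members, those next to the count threshold, and up to 4 called genes per list. Other genes are named after their values were seen: ftr91 (the seventh lower fintrim gene against mtorxu015/+), ftr50 ENSDARG00000116623, nlrb5, nitr2b, overlapping neighbours, members with an adjusted p under 0.05 and less than 1.5-fold, genes of the runs, and 1 interferon gene beyond the rule. Alternatives were DESeq2 (version 1.42.0), limma-voom (limma version 3.58.1), RLE and upper-quartile normalization, other filters and thresholds, a fit of only 2 genotypes, a block for the replicate number, and each library left out in turn. The tests were checked on simulated counts. No sequences are shown, because no genome or sequence table was used here.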

Additional observations from a re-analysis of the deposited data

How the results depend on the processing

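In Tg(cmlc2:tfeb) versus WT the 20 calls became 9 at an adjusted p under 0.01, and 12 to 20 with 1 library left out, 12 of them without WT replicate 2 and 13 without Tg(cmlc2:tfeb) replicate 3. The 11 higher calls became 4 at an adjusted p under 0.01 and 6 to 11 with a library left out. The 9 lower calls became 15 with no fold threshold, 5 at an adjusted p under 0.01 and 6 to 9 with a library left out. Of the 20 called genes, 10 were called in every fit tried, including the 6 that each left out a library. In Tg(cmlc2:tfeb) versus mtorxu015/+ the 24 calls became 12, and the 15 higher calls 6, at an adjusted p under 0.01. With a library left out they were 13 to 20 in all, 6 to 11 higher and 7 to 10 lower, the lowest without Tg(cmlc2:tfeb) replicate 2, and 12 of the 24 were called in every fit. Both the 10 and the 12 include nitr1b ENSDARG00000069773, which met the count rule through the transgenic libraries alone. Its calls in these fits follow from how it was chosen. In mtorxu015/+ versus WT every fit gave 0 calls. Fewer samples are part of each fit that leaves out a library, and the cause was otherwise not tested.

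The replicate numbers that the genotypes share gave no clear pairing of the libraries. Deviations of same-numbered libraries correlated between -0.0239 and 0.0889, and those of differently numbered libraries between -0.119 and 0.0542. A weak pairing by number is not excluded by these values. With the number as a block, 18 members were called in Tg(cmlc2:tfeb) versus WT, 0 in mtorxu015/+ versus WT and 19 in Tg(cmlc2:tfeb) versus mtorxu015/+. The calls it lost were ftr50 ENSDARG00000112545 and ftr73 against WT, and ftr52p, trim66, nitr1b ENSDARG00000069848, nlrc8 ENSDARG00000076819 and ftr91 against mtorxu015/+, and irgf4 of the lists against WT.

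With a limit of 10 counts in place of 3, 3 members were silent in Tg(cmlc2:tfeb), 5 in mtorxu015/+ and 5 in WT, and with a limit of 1 count 0 were silent in mtorxu015/+. The log2 ratios of family sums changed when the median log2 level replaced the sum. For Tg(cmlc2:tfeb) over WT they were 0.27 against -0.051 for fintrim, 0.059 against -0.11 for TRIM, -0.36 against -0.012 for NLR and 1.01 against 0.36 for DICP. For mtorxu015/+ over WT they were 0.084 against 0.024 for fintrim, -0.056 against 0.029 for TRIM, 0.085 against 0.00946 for NLR and 0.15 against -0.13 for DICP. The median log2 level follows the gene of middle rank in each library. The median of the members' own log2 fold changes in Tg(cmlc2:tfeb) versus WT was 0.075 for fintrim, 0.012 for TRIM, -0.037 for NLR and 0.65 for DICP. Signs of small, uncalled values also turned when a library was left out. Over these fits the log2 fold change in Tg(cmlc2:tfeb) versus WT ran between -0.033 and 0.16 for ftr82, -0.19 and 0.058 for nlrx1, -0.27 and 0.014 for trim33 and -0.22 and 0.052 for trim8a and -0.051 and 0.073 for nlrc11 (si:ch211-181d7.3), and that of tfeb in mtorxu015/+ versus WT between -0.15 and 0.11.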

Other observations

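Some members of these families carry only a clone name in the table and were added after the data were seen, from a table that pairs gene IDs with current symbols. It places 12 more genes in the families, 9 of them tested. Of the NLR genes among these, nlrc10 had normalized counts of 5.13, 0 and 0 in Tg(cmlc2:tfeb) libraries, 68.5, 87.3 and 104 in mtorxu015/+ libraries and 51.3, 39.04 and 53.4 in WT libraries (log2 fold change -4.61, SE 0.69, adjusted p 0.00188), so all transgenic libraries lay far below the other 6. The symbol nlrp3, in mammals the sensor of the best-known inflammasome, was paired with a gene at 337, 287 and 358 in Tg(cmlc2:tfeb) libraries, 179, 198 and 193 in mtorxu015/+ libraries and 205, 201 and 185 in WT libraries (log2 fold change 0.73, SE 0.11, adjusted p 0.00209). A gene paired with nlrp12l2 had 54.7, 47.03 and 31.4 in Tg(cmlc2:tfeb) libraries, 13.3, 19.5 and 15.02 in mtorxu015/+ libraries and 19.9, 22.96 and 17.4 in WT libraries (log2 fold change 1.14, SE 0.30, adjusted p 0.0241). Both were higher in every transgenic library. The gene paired with nlrc11 had 5399 ± 225 in Tg(cmlc2:tfeb), 5521 ± 349.7 in mtorxu015/+ and 5372 ± 463 in WT (SD, n = 3 each) and did not pass the edgeR test (log2 fold change 0.0071, 95% interval -0.16 to 0.18, adjusted p 0.962). The TRIM gene paired with trim35-4 had 0.855, 8.71 and 4.48 in Tg(cmlc2:tfeb) libraries, 26.5, 14.9 and 14.1 in mtorxu015/+ libraries and 12.6, 19.5 and 21.8 in WT libraries and missed the threshold against WT (log2 fold change -1.91, SE 0.62, adjusted p 0.054). In DESeq2 and limma-voom its adjusted p was 0.0394 and 0.0408. The call of nlrp12l2 was lost without Tg(cmlc2:tfeb) replicate 1 or 2 or any WT replicate (adjusted p up to 0.0857, and 0.017 to 0.0857 over all alternatives). With these genes added, 3 NLR genes were called in Tg(cmlc2:tfeb) versus WT where the table's names gave 0, and 4 against mtorxu015/+ where they gave 1. With these 9 tested genes beside the 128 members, the calls over all families became 23 against WT, where they were 20. Against mtorxu015/+ they became 28, where they were 24. Of all genes tested, 14.9% were called against WT and 16% against mtorxu015/+. The genes were added with their values known, so the rise is no result about the families.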
